A study of Oryza sativa with 9 samples.

Results

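Young panicles of the *GSE9* overexpression line ZH11-OE-1 were compared with those of the wild type ZH11 by RNA-seq, using 6 of the 9 libraries of the series, 3 per genotype. The genes compared are the 21666 of 37863 in the table whose mean over these 6 libraries was at least 1 FPKM (a read count scaled by gene length and library size). ZH11-OE-1, titled ZH11-OE1 in the sample labels, is Zhonghua11 that carries the *GSE9* coding sequence behind a ubiquitin gene promoter, introduced with *Agrobacterium*. ZH11 is the untransformed *japonica* variety Zhonghua11 itself. The third genotype of the series, the CRISPR/Cas9 knockout ZH11-Cas9-1, entered the fit to estimate the spread between libraries, and a few of its levels are given. ZH11-OE-1 is 1 transgenic line driven by a promoter active in most tissues, so effects of the line or of expression outside the usual cells cannot be told apart from those of *GSE9* dose. The libraries are described as independent repeats of young panicles, which the labels place before heading and the methods before anthesis.

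Rice grains fill the space enclosed by the spikelet hull, the paired lemma and palea, and hull size is set by how many cells the hull makes and how far they expand. Known regulators of grain shape therefore act through the cell cycle, the cell wall, hormones and transcription factors of the flower. *GSE9* is a gene of chromosome 9 without known protein domains, and the comparison asks which transcripts move when it is driven to a high level.

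The ends of the transgene are shown because they define what ZH11-OE-1 carries. They are the gene-specific parts of the primers that amplified the coding sequence, with the start codon and the stop codon in capitals.
GSE9 coding sequence, first 18 bases: ATGccccaacctcgtccg
GSE9 coding sequence, last 29 bases: caagtgttttatttgtttgtgttttaTGA
No source used here ties *GSE9* to a row of the table, so the check of the targeted gene is not given by name.

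The libraries were of like quality. FPKM summed to 635209 to 650991 in ZH11-OE-1 libraries and 651917 to 676384 in ZH11 libraries, and 28434 to 28720 and 28701 to 28789 genes were above 0. Every FPKM sum of ZH11-OE-1 was thus below every one of ZH11. Read totals were not used here, and depth relative to ZH11 replicate 1, estimated from steps between low values, was 0.976 to 1.07 in ZH11-OE-1 and 0.989 to 1.03 in ZH11. Across genes, which are not independent replicates, log2 values had a Pearson correlation of at least 0.980 between libraries of 1 genotype and of 0.947 to 0.970 between ZH11-OE-1 and ZH11. The panicle label was checked against 22 spikelet MADS-box and floral identity genes, which specify floral organs. Of these, 21 were above the filter, 0 were listed at 0, and they summed to 1895 to 2205 FPKM in ZH11-OE-1 libraries and 1993 to 2183 FPKM in ZH11 libraries. Their median log2 fold change was -0.05, a sign that turned under median-of-ratios rescaling, and limma called 0 of them changed, with 3 at an unadjusted p under 0.05, as had 30.5% of all tested genes.

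More transcripts were lower than higher in ZH11-OE-1. Of the 21666 genes tested, 2991 changed (13.8%), of which 816 rose (3.77%) and 2175 fell (10.04%) in ZH11-OE-1 relative to ZH11. A gene was called when the Benjamini-Hochberg adjusted p from limma, on log2(FPKM + 1), was under 0.05, and fold changes on this scale understate the change of genes at low FPKM. The median log2 fold change was 0.64 among genes that rose, -0.66 among genes that fell and -0.04 over all tested genes. The median over all tested genes changed sign with rescaling, to 0.009 with median of ratios and 0.017 with quantile normalization. Counting only calls of at least 1 on the log2 scale left 584 genes (2.70%), 232 that rose (1.07%) and 352 that fell (1.62%). All ZH11-OE-1 libraries lay above all ZH11 libraries in 12.6% of tested genes and below them in 21.2%. With median-of-ratios rescaling, 1218 genes rose and 1763 fell, and with quantile normalization 1165 rose and 1718 fell, so the share of calls that were falls was 59.1% and 59.6%, against 72.7% without rescaling. Without ZH11-OE-1 replicate 1, 2 or 3, limma called 508, 247 and 360 genes higher and 1413, 836 and 1378 lower, and without ZH11 replicate 1 it called 241 higher and 888 lower.

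**Figure D1:**
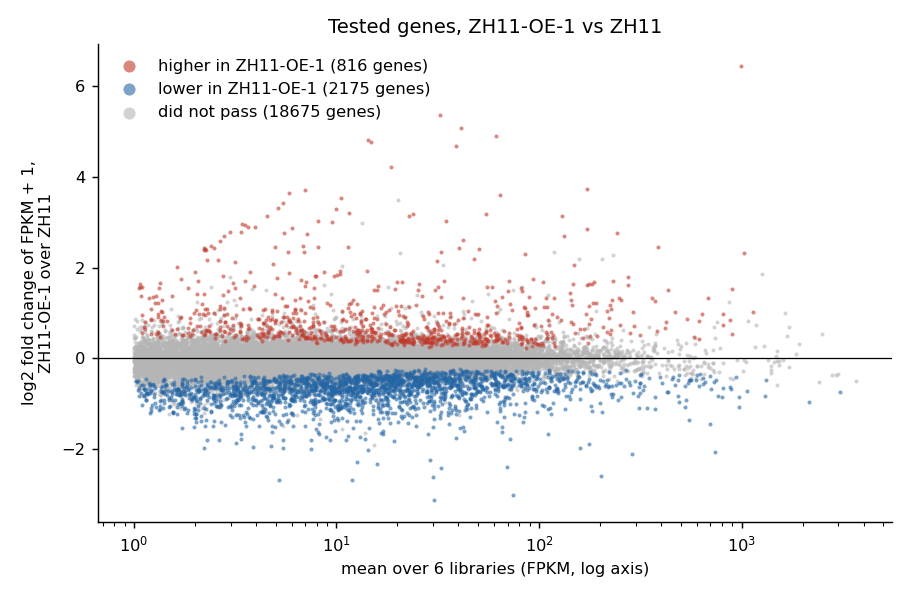
Log2 fold change of FPKM + 1 in ZH11-OE-1 over ZH11 (vertical axis) against the mean FPKM of the 6 libraries (horizontal log axis), 1 point per tested gene. Red points are the 816 genes that rose, blue points the 2175 that fell, and grey points did not pass; rises reach further from 0 than falls, up to 6.45 against -3.14.

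Most members of a list of 7 DNA replication genes rose in ZH11-OE-1. The list of 7 DNA replication genes holds subunits of the MCM helicase, which opens DNA at replication origins, and PCNA, the clamp that holds DNA polymerase on its template. Of these 7, 5 rose (3.77% of all tested genes rose), with log2 fold changes of 0.56 to 0.85, and 0 fell. The other 2 had positive fold changes, and the median of the 7 was 0.59, beside -0.04 for all tested genes. Their FPKM summed to 56.1, 66.7 and 74.1 in the ZH11-OE-1 libraries, against 42.6, 51.2 and 39.2 in the ZH11 libraries. The lowest ZH11-OE-1 library was thus above the highest ZH11 library. A panel of cell cycle genes that the study chose from these libraries names *MCM2*, *MCM3*, *MCM4* and *MCM5*. The rise of this list is therefore not independent evidence. The count of 5 depended on the libraries used. It was 4, 1 and 0 without ZH11-OE-1 replicate 1, 2 or 3, and 0, 5 and 2 without ZH11 replicate 1, 2 or 3, while the median stayed positive in every setting tried (0.53 to 0.80).

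*MCM4* (Os01g0544450), an MCM subunit and the 1 member of this list that could be named, stood at 4.46, 6.61 and 6.14 FPKM in ZH11-OE-1, against 2.98, 3.60 and 2.28 FPKM in ZH11. All 3 ZH11-OE-1 values were above all 3 ZH11 values. Limma put the difference at 0.77 ± 0.19 on the log2 scale (SE, adjusted p = 0.0250). It was chosen for a panel by the study from these libraries and its row was identified once the data had been seen, so its rise is not independent evidence. The call was lost with no filter on low values, and without ZH11-OE-1 replicate 2 or 3 or ZH11 replicate 1 or 3 (adjusted p up to 0.0936 from limma).

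Cyclins and cyclin-dependent kinases, which drive the cell through division, gave no call. None of the 9 tested genes (of 11 listed) passed in limma, where 3 of the 9 had an unadjusted p under 0.05, all of them higher (30.5% of all tested genes had one in either direction). Their log2 fold changes ran from -0.23 to 0.65 with a median of 0.23, and 8 of the 9 were above 0, as were 43.9% of all tested genes. The list summed to 74.3, 76.8 and 91.4 FPKM in ZH11-OE-1 and 62.1, 76.9 and 62.4 FPKM in ZH11. These sums overlapped, since ZH11 replicate 2 was level with the middle ZH11-OE-1 library. After median-of-ratios rescaling or quantile normalization, 2 of the 9 passed.

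Expansins, the proteins that loosen the wall as cells grow, moved in both directions. Of 19 listed genes, 12 were tested, and 2 rose, 1 fell and 9 did not pass (3.77% of all tested genes rose and 10.04% fell). Fold changes ran from -1.31 for the gene that fell to 1.03 for the larger of the 2 rises, and the median of -0.01 changed sign among settings. The 19 genes summed to 761, 682 and 715 FPKM in ZH11-OE-1, against 853, 797 and 781 FPKM in ZH11. Every ZH11-OE-1 sum was below every ZH11 sum. Even so, 4 tested members lay wholly above ZH11 (12.6% of all tested genes) and 4 wholly below (21.2%). The gene with the highest level gave 42.8% of the summed FPKM, so the sum and the per-gene counts describe different things. Limma called 1 expansin higher without ZH11-OE-1 replicate 1 or 2 or ZH11 replicate 3, 0 without ZH11-OE-1 replicate 3 or ZH11 replicate 1 and 3 without ZH11 replicate 2, and 1 lower in each of these fits.

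Among genes of wall synthesis, the calls were falls. Cellulose synthases make the glucan chains of primary and secondary walls, and of the 9 tested, 4 fell (10.04% of all tested genes fell), by 0.32 to 0.75 on the log2 scale, and 0 rose. The median was -0.27, and the list summed to 1450, 1574 and 1371 FPKM in ZH11-OE-1 and 1776, 1566 and 1756 FPKM in ZH11. ZH11 replicate 2 lay inside the range of ZH11-OE-1, so these sums overlapped. The count of 4 was 3, 1 and 0 without ZH11-OE-1 replicate 1, 2 or 3 and 0, 4 and 1 without ZH11 replicate 1, 2 or 3.

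The phenylpropanoid and lignin genes, which turn phenylalanine into the monomers of lignin, gave falls too. Of 15 listed genes, 13 were tested, 5 fell (10.04% of all tested genes fell) and 0 rose, with log2 fold changes of -0.73 to -0.56 among the 5 and a median of -0.52 over the 13. The list stood at 4279, 4099 and 3381 FPKM in ZH11-OE-1, against 6374, 4964 and 6025 FPKM in ZH11. Each ZH11-OE-1 library was below each ZH11 library. Between 4 and 6 members fell in the 6 fits that left out 1 library. The highest member gave 49.6% of the summed level, and 1 listed gene was at 0 in all 6 libraries.

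Photosynthesis genes gave the largest group of falls among the lists. The 29 genes encode light-harvesting proteins, photosystem subunits and carbon fixation enzymes, and they mark green cells such as those of the hull. Of the 29, 20 fell (10.04% of all tested genes fell) and 0 rose, all 29 had a negative fold change (56.1% of all tested genes did), and the median was -0.48. The falls that passed ran from -1.10 to -0.40. Summed FPKM was 12977, 11269 and 12594 in ZH11-OE-1, against 21613, 16826 and 16871 in ZH11, a mean of 12280 ± 896 against 18437 ± 2751 (SD, n = 3). All ZH11-OE-1 sums were below all ZH11 sums, and 24 of the 29 genes had non-overlapping libraries in that direction (21.2% of all tested genes). The count of 20 was 12, 4 and 11 without ZH11-OE-1 replicate 1, 2 or 3, 6 without ZH11 replicate 1 and 9 with no filter on low values. These are bulk libraries, in which fewer cells of a type and less RNA per cell cannot be told apart.

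**Figure D2:**
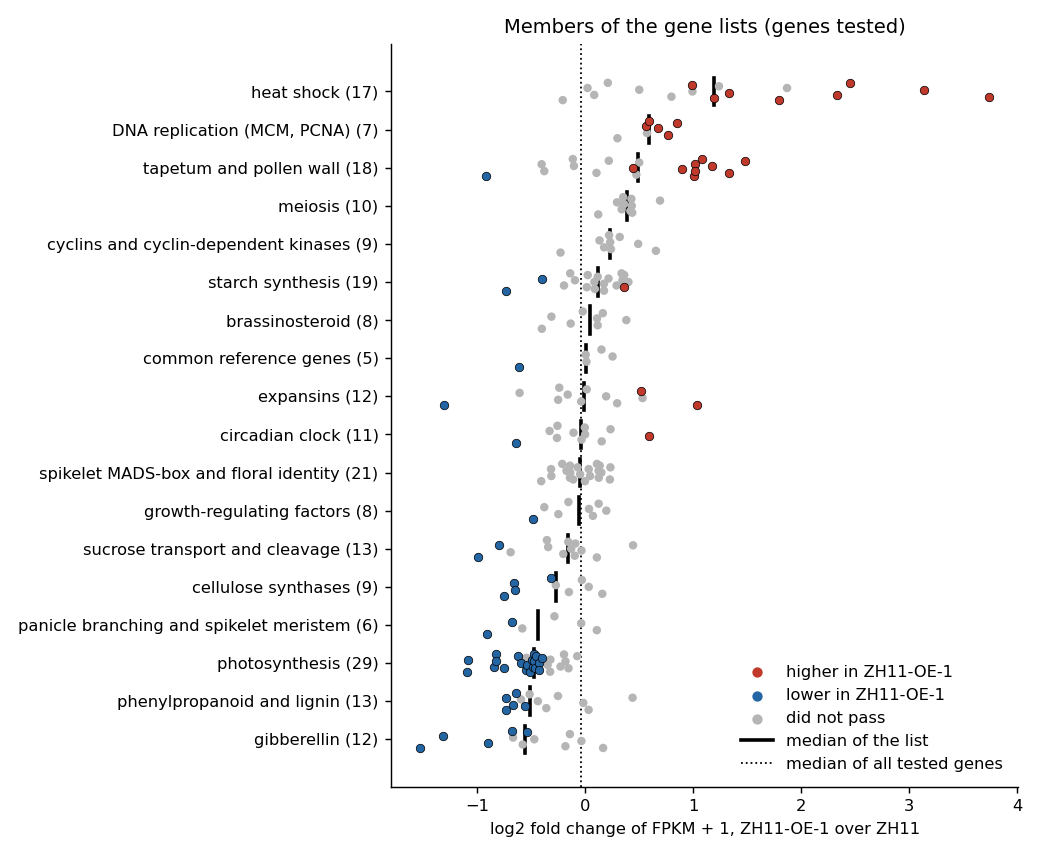
Log2 fold change of FPKM + 1 in ZH11-OE-1 over ZH11 (horizontal axis) for each tested member of 18 gene lists (rows, with the number tested), with red for genes that rose, blue for genes that fell and grey for those that did not pass. Thick bars are list medians, from 1.19 for heat shock to -0.56 for gibberellin, and the dotted line is the median of all tested genes, -0.04.

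Among genes of the developing anther, most calls were rises. The tapetum and pollen wall list holds regulators of the tapetum, the layer that feeds the pollen, and enzymes that build pollen exine and the anther cuticle. Of 19 listed genes, 18 were tested, 9 rose (3.77% of all tested genes rose), 1 fell and 8 did not pass, with rises of 0.45 to 1.48 on the log2 scale, 1 fall of -0.92 and a median of 0.49. The median log2(FPKM + 1) of its members was 5.71, 5.74 and 5.56 in the ZH11-OE-1 libraries, against 4.79, 5.34 and 4.38 in the ZH11 libraries. All ZH11-OE-1 medians were above all ZH11 medians. The summed FPKM did not separate the groups. It was 6177, 5893 and 5400 in ZH11-OE-1 and 6519, 5923 and 4245 in ZH11, and the highest member gave 48.9% of it. The count of 9 was 5, 4 and 5 without ZH11-OE-1 replicate 1, 2 or 3 and 4 without ZH11 replicate 1.

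Meiosis genes, which pair and recombine chromosomes in the pollen and embryo sac mother cells, had fold changes above 0 in all 10 tested members of 14 listed. None of the 10 passed in limma, although 6 had an unadjusted p under 0.05, all higher (30.5% of all tested genes had one in either direction). Fold changes were 0.12 to 0.69 with a median of 0.39, and in 6 of the 10 all ZH11-OE-1 libraries were above all ZH11 libraries (12.6% of all tested genes). The summed level was 54.5, 64.6 and 70.1 FPKM in ZH11-OE-1, against 40.4, 48.3 and 47.9 FPKM in ZH11. Every ZH11-OE-1 sum was above every ZH11 sum. After median-of-ratios rescaling or quantile normalization, 3 of the 10 passed. Among the meiosis markers 1 was listed at 0, and among those of photosynthesis and of tapetum and pollen wall 0 were. The part that different shares of anther, green or dividing cells have in the other differences given here was not tested.

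Heat shock genes reached the highest median of any list, 1.19 over 17 tested members of 18. They encode small heat shock proteins, chaperones and heat shock factors, which accumulate when proteins unfold. Of the 17, 8 rose (3.77% of all tested genes rose), by 0.98 to 3.74 on the log2 scale, 0 fell, and in 12 the ZH11-OE-1 libraries were all above the ZH11 libraries (12.6% of all tested genes). They summed to 20236, 12267 and 12339 FPKM in ZH11-OE-1, against 6094, 5799 and 10666 FPKM in ZH11. ZH11-OE-1 replicate 1 was the highest and ZH11 replicate 3 stood above the other two ZH11 libraries. The calls rested on which libraries were kept. Limma called 0, 1 and 0 members higher without ZH11-OE-1 replicate 1, 2 or 3, 0 and 1 without ZH11 replicate 1 or 2, 12 without ZH11 replicate 3, and 0 with no filter on low values. The median was between 0.90 and 1.38 in every setting tried.

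**Figure D3:**
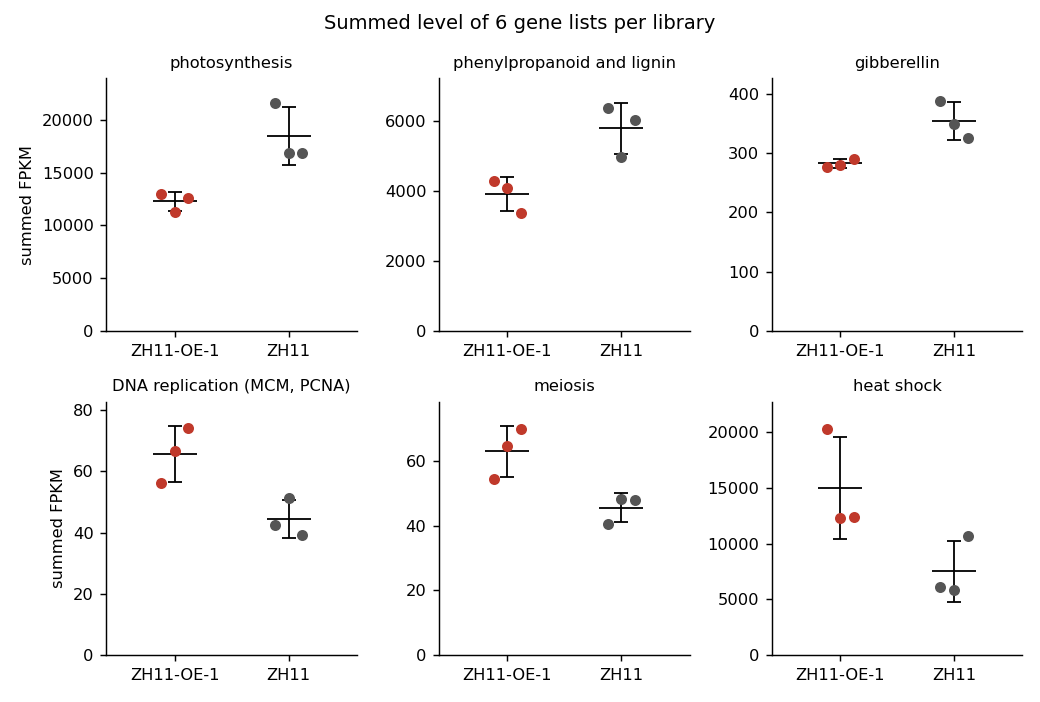
Summed FPKM (vertical axes, from 0) of 6 gene lists in each library, with ZH11-OE-1 left (red) and ZH11 right (grey); points are libraries, and bars the mean ± SD (n = 3). Photosynthesis, phenylpropanoid and lignin, and gibberellin sums are lower in every ZH11-OE-1 library, and DNA replication, meiosis and heat shock sums higher in every one.

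Among gibberellin genes, the calls were falls. Gibberellin is a growth hormone, and the list of 13 holds enzymes of its synthesis and breakdown, its receptor and its signalling repressor. Of 12 tested, 5 fell (10.04% of all tested genes fell) and 0 rose, with falls from -1.53 to -0.54 and a median of -0.56, and 8 of the 12 lay wholly below ZH11 (21.2% of all tested genes). With a minimum mean of 5 FPKM, 7 were tested and the median was -0.18. Summed FPKM was 277, 280 and 291 in ZH11-OE-1, against 389, 348 and 325 in ZH11, without overlap. The count of 5 was 1 and 3 without ZH11-OE-1 replicate 2 or 3, 1 without ZH11 replicate 1 and 3 with a minimum mean of 5 FPKM.

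Many of the genes that lay out the panicle and its spikelets were at low levels. Among 17 panicle branching and spikelet meristem genes, which set branch number and meristem fate, 11 were below the filter. *DEP1* and *OsSNB* of this list also belong to the grain shape genes described further on. Of the 6 tested, 2 fell (10.04% of all tested genes fell), with log2 fold changes of -0.91 and -0.68, 0 rose, and the median was -0.43. The list summed to 71.3, 69.0 and 68.9 FPKM in ZH11-OE-1, against 93.9, 93.6 and 85.3 FPKM in ZH11, without overlap. Without ZH11-OE-1 replicate 1, 2 or 3, or without ZH11 replicate 1, 1 of them fell. Growth-regulating factors, transcription factors that promote cell proliferation in young organs, gave 1 fall (-0.49) and 0 rises among 8 tested, near the 10.04% of all tested genes that fell. Their median of -0.06 changed sign among settings, and the 1 call was lost with both rescalings, with no filter, with no trend, with a replicate block, when only the 2 genotypes were fitted, and in each fit without 1 library other than that without ZH11-OE-1 replicate 2.

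The study also compiled known grain shape regulators and sorted them by pathway. Its 64 entries hold 62 distinct names, of which 58 could be tied to a row, because all 6 values printed for a name equalled those of exactly 1 row within 0.0051 FPKM, and 52 of these were tested. The other 4 names are *GSE5*, *OsPUP7*, *OsPIL15* and *OsPAO5*. Of the 52, 4 rose and 4 fell, or 15.4%, near the 13.8% of all tested genes. In 10 of the 52 the ZH11-OE-1 libraries were all above those of ZH11 (12.6% of all tested genes), and in 14 all below (21.2%). Without ZH11-OE-1 replicate 1, 2 or 3, limma called 2, 1 and 1 of them higher and 3, 1 and 2 lower, and without ZH11 replicate 1, 2 or 3 it called 1, 5 and 4 higher and 2, 2 and 6 lower. With median-of-ratios rescaling 8 rose and 3 fell, and with quantile normalization 9 rose and 3 fell. Among the genes given below, *WTG1*, *RGG2*, *DEP1* and *OsMAPK6* changed sign among settings. In each of the 8 that passed, and in *MCM4*, the libraries did not overlap, and the two-sided exact permutation test gave p = 0.1, the smallest that 3 libraries against 3 allow.

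Of the 2 gibberellin-stimulated genes of that list, 1 passed. *OsGASR9* (Os07g0592000), a small secreted protein gene of the gibberellin-stimulated family that promotes grain size, was at 34.8, 34.1 and 33.7 FPKM in ZH11-OE-1, against 10.3, 19.2 and 16.0 FPKM in ZH11. The ZH11-OE-1 values were nearly equal, whereas those of ZH11 were spread, and the ratio of means was 2.25. Its difference of 1.16 ± 0.18 on the log2 scale (SE, adjusted p = 0.00404, limma) was the largest rise of the 52, and it was called in all 15 alternative settings. *GW6* (Os06g0266800), of the same family, was at 199, 194 and 228 FPKM in ZH11-OE-1 and 144, 184 and 140 FPKM in ZH11. These values did not overlap, but in limma its difference of 0.41 on the log2 scale missed the threshold (adjusted p = 0.0505). In ZH11-Cas9-1, *OsGASR9* averaged 27.6 ± 2.69 FPKM, above its ZH11 mean of 15.2 ± 4.53 FPKM (SD, n = 3). *GW6* averaged 260 ± 25.8 FPKM there, above its ZH11 mean of 156 ± 24.3 FPKM (SD, n = 3). The differences of ZH11-Cas9-1 from ZH11 were not tested.

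Among transcription factor genes of the list, falls outnumbered rises, as they did among all tested genes. Of 12 tested, 3 fell and 1 rose (10.04% of all tested genes fell and 3.77% rose). A negative fold change was found in 9 of the 12 (56.1% of all tested genes), and the median was -0.27. *OsSPL13* (Os07g0505200), an SPL-family factor that promotes grain length, was at 0.877, 0.256 and 0.290 FPKM in ZH11-OE-1, against 2.68, 1.85 and 1.43 FPKM in ZH11. The groups did not overlap, though both were at low levels. Its difference of -1.02 ± 0.20 on the log2 scale (SE, adjusted p = 0.0111, limma) was the largest fall of the 52 and was called in all 14 alternatives in which it was tested. In ZH11-Cas9-1, *OsSPL13* averaged 7.91 ± 1.04 FPKM, above its ZH11 mean of 1.99 ± 0.64 FPKM (SD, n = 3), a difference that was not tested. The SPL genes *OsSPL16* and *OsSPL18* had log2 fold changes of -0.21 and -0.34, which did not pass (adjusted p = 0.270 and 0.0591 from limma).

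The bHLH gene *APG* (Os05g0139100), which restrains grain length and is opposed by the bHLH protein PGL1, was at 10.02, 8.92 and 9.89 FPKM in ZH11-OE-1, against 12.9, 14.8 and 14.2 FPKM in ZH11. Every ZH11-OE-1 value was lower, with a difference of -0.50 ± 0.11 on the log2 scale (SE, adjusted p = 0.0166, limma), a call lost without ZH11-OE-1 replicate 2 (adjusted p = 0.0671 from limma). *PGL1* itself lay below the filter, at 0.345 ± 0.150 FPKM in ZH11-OE-1 and 0.641 ± 0.101 FPKM in ZH11 (SD, n = 3), and *PGL2*, an atypical bHLH that promotes grain length, had a log2 fold change of 0.20 that did not pass.

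The AP2/ERF factor genes of the list that passed, *OsLG3* and *SMOS1*, moved in opposite directions. *OsLG3* (Os03g0183000), which promotes grain length, was at 12.3, 12.6 and 10.7 FPKM in ZH11-OE-1, against 18.6, 16.9 and 18.5 FPKM in ZH11. It was lower in all 3 ZH11-OE-1 libraries, with a difference of -0.57 ± 0.16 on the log2 scale (SE, adjusted p = 0.0402, limma), but the call was lost in each of the 6 fits without 1 library, with no filter on low values, with no trend and with both rescalings (in limma, adjusted p up to 0.118). *SMOS1* (Os05g0389000), which promotes cell expansion in response to auxin, was at 14.6, 14.5 and 13.7 FPKM in ZH11-OE-1, against 9.40, 11.7 and 11.04 FPKM in ZH11. It was higher in all 3 ZH11-OE-1 libraries, with a difference of 0.39 ± 0.10 on the log2 scale (SE, adjusted p = 0.0319, limma). That call was lost without any 1 of the ZH11-OE-1 libraries, without ZH11 replicate 1, and when only the 2 genotypes were fitted (adjusted p up to 0.113 from limma).

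In MAPK signalling, which relays a receptor signal to control hull cell number, a receptor gene rose and a kinase gene fell. These were 1 rise and 1 fall among 6 tested genes (3.77% of all tested genes rose and 10.04% fell). *OsER1* (Os06g0203800), a receptor-like kinase upstream of the cascade, was at 30.0, 34.1 and 33.9 FPKM in ZH11-OE-1, against 22.9, 27.4 and 25.6 FPKM in ZH11. The ZH11-OE-1 values were all higher, with a difference of 0.36 ± 0.10 on the log2 scale (SE, adjusted p = 0.0383, limma). *OsMKK4* (Os02g0787300), the middle kinase, was at 18.4, 16.1 and 17.0 FPKM in ZH11-OE-1, against 22.6, 23.5 and 22.3 FPKM in ZH11. All 3 values in ZH11-OE-1 were lower, with a difference of -0.39 ± 0.10 on the log2 scale (SE, adjusted p = 0.0310, limma). The call of *OsER1* was lost without ZH11-OE-1 replicate 2 or 3 or ZH11 replicate 1 or 3, with no filter, with no trend, and when only the 2 genotypes were fitted (adjusted p up to 0.134 from limma), and that of *OsMKK4* without ZH11-OE-1 replicate 2 or 3 or ZH11 replicate 1 or 2 (up to 0.108). The kinases on either side of *OsMKK4*, *OsMKKK10* and *OsMAPK6*, had log2 fold changes of 0.08 and 0.02, and those of the phosphatase gene *OsMKP1* and the small GTPase gene *OsRac1* were -0.27 and -0.38. These 4 did not pass.

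**Figure D4:**
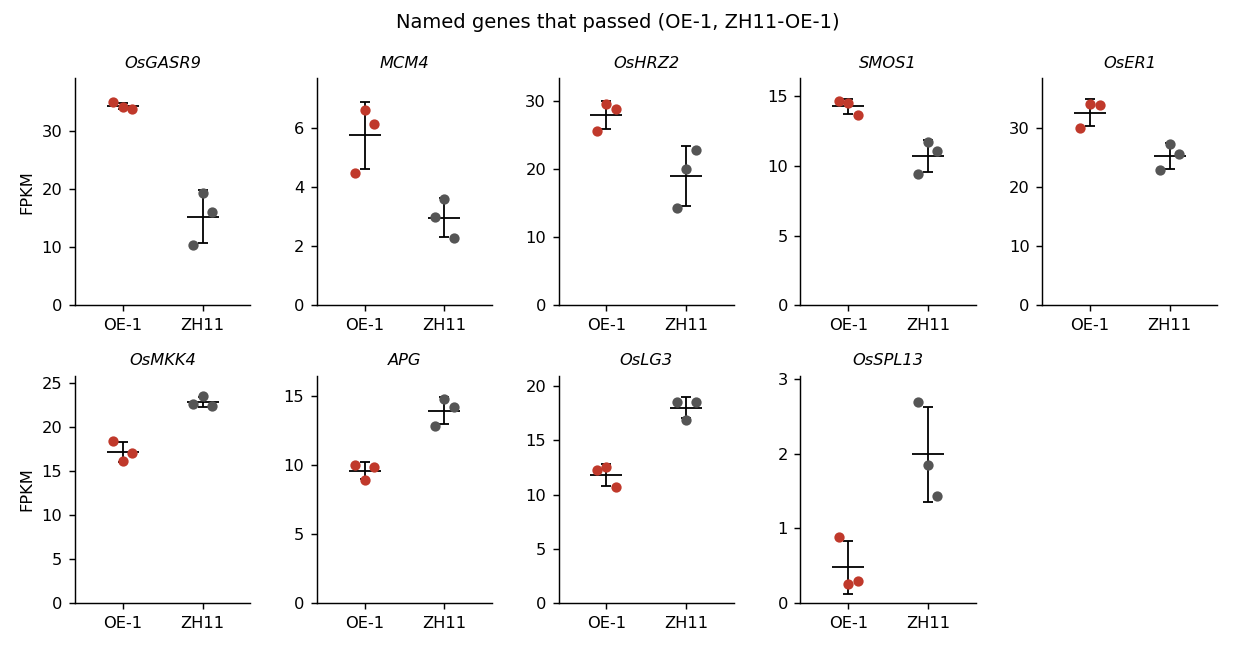
FPKM (vertical axes, from 0) of the 9 named genes that passed, in each library of ZH11-OE-1 (red, left) and ZH11 (grey, right), with the mean ± SD (n = 3). In all 9 the 2 groups do not overlap; *OsGASR9* has nearly equal values in ZH11-OE-1, from 33.7 to 34.8 FPKM.

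The ubiquitin-proteasome genes, which tag and remove proteins that control hull cell division, gave 1 rise among 6 (3.77% of all tested genes rose). *OsHRZ2* (Os05g0551000), a ubiquitin ligase known for its part in the iron response, was at 25.5, 29.5 and 28.7 FPKM in ZH11-OE-1, against 14.2, 19.97 and 22.8 FPKM in ZH11. All ZH11-OE-1 values were higher, with a difference of 0.55 ± 0.15 on the log2 scale (SE, adjusted p = 0.0374, limma). The call was lost without any 1 of the ZH11-OE-1 libraries and without ZH11 replicate 1 or 2, with no filter, and when only the 2 genotypes were fitted (adjusted p up to 0.119 from limma). *GW2*, a ubiquitin ligase that restricts grain width, was at 22.6, 25.3 and 25.2 FPKM in ZH11-OE-1 and 18.8, 20.9 and 17.97 FPKM in ZH11. These did not overlap, and in limma the difference of 0.32 on the log2 scale missed the threshold (adjusted p = 0.0550). *HDR3*, *LG1*, *WTG1* and *TUD1* had log2 fold changes of 0.34, 0.09, -0.04 and -0.18 and did not pass.

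The heterotrimeric G protein genes, whose subunits restrain or promote grain length, gave no call among 6 in limma, with 3 at an unadjusted p under 0.05 (30.5% of all tested genes), all higher. The beta subunit gene *RGB1* was at 63.8, 64.2 and 62.5 FPKM in ZH11-OE-1 and 52.2, 56.4 and 53.3 FPKM in ZH11. Its values did not overlap, and limma gave 0.23 on the log2 scale, short of the threshold (adjusted p = 0.0538). The gamma subunit gene *RGG1* and the alpha subunit gene *RGA1* had log2 fold changes of 0.34 and 0.29, the gamma-like *GS3* and *DEP1* of 0.26 and 0.11, and *RGG2* of -0.06.

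Hormone genes of the list other than those of gibberellin gave no call. Of 11 brassinosteroid genes tested, limma called 0, with 5 at an unadjusted p under 0.05 (30.5% of all tested genes), 2 higher and 3 lower. The transcription factor gene *OsBZR1*, which carries the brassinosteroid signal into the nucleus, was at 43.9, 43.6 and 49.1 FPKM in ZH11-OE-1 and 57.8, 69.3 and 55.0 FPKM in ZH11. Its values did not overlap, and its difference of -0.40 on the log2 scale did not pass in limma (adjusted p = 0.0779). The receptor genes *OsBRI1* and *OsBAK1* had log2 fold changes of 0.11 and 0.16, the synthesis gene *D11* of -0.31 and *GS5*, a carboxypeptidase gene that widens grains, of 0.29. Of 5 auxin genes limma called 0, with 1 at an unadjusted p under 0.05, *TSG1* of auxin synthesis, at a log2 fold change of -0.42. Of 4 ethylene genes it called 0, with 0 at an unadjusted p under 0.05.

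**Figure D5:**
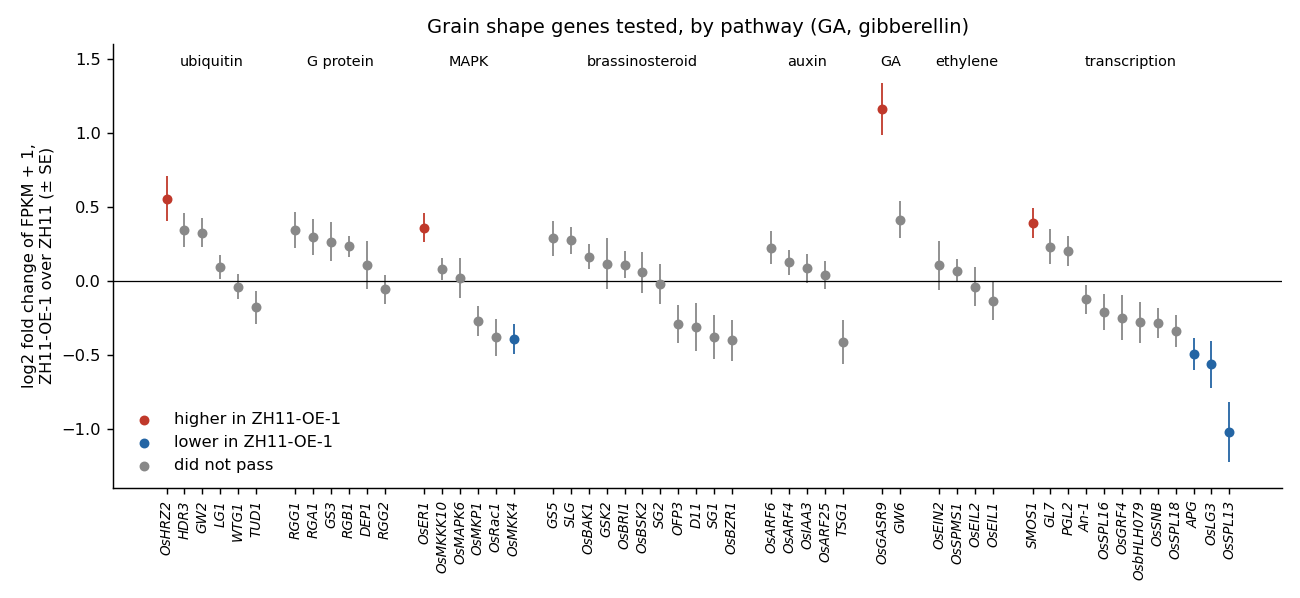
Log2 fold change of FPKM + 1 in ZH11-OE-1 over ZH11 (vertical axis, ± SE from limma) for the 52 tested grain shape genes, grouped by pathway. The 4 red genes rose, the 4 blue genes fell and the grey ones did not pass; the extremes are *OsGASR9* at 1.16 and *OsSPL13* at -1.02.

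The largest changes belonged to genes that no source used here names. Os09g0242600, on chromosome 9 by its identifier, was at 2389, 1821 and 1711 FPKM in ZH11-OE-1, against 21.6, 24.2 and 18.4 FPKM in ZH11. Its mean in ZH11-OE-1 was 92.2 times that in ZH11, and its difference of 6.45 ± 0.13 on the log2 scale (SE, adjusted p = 9.24e-10, limma) was the largest of all tested genes. In ZH11-Cas9-1 it averaged 22.3 ± 1.14 FPKM, beside its ZH11 mean of 21.4 ± 2.87 FPKM (SD, n = 3), a difference that was not tested. Whether Os09g0242600 is *GSE9* was not tested. Os07g0153150 was at 65.8, 71.4 and 55.7 FPKM in ZH11-OE-1, against 0.382, 0.567 and 0.791 FPKM in ZH11, with a difference of 5.37 ± 0.13 on the log2 scale (SE, adjusted p = 2.49e-09, limma). It averaged 48.0 ± 4.27 FPKM (SD, n = 3) in ZH11-Cas9-1 as well, so a high level was not particular to the overexpression line.

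The 2 largest falls were more spread between libraries. Os02g0135000 was at 13.9, 3.25 and 1.93 FPKM in ZH11-OE-1, against 79.3, 25.4 and 59.0 FPKM in ZH11, with a difference of -3.14 ± 0.59 on the log2 scale (SE, adjusted p = 0.00945, limma). Os02g0520500 was at 28.1, 20.04 and 5.31 FPKM in ZH11-OE-1, against 163, 86.0 and 144 FPKM in ZH11, with a difference of -3.02 ± 0.50 on the log2 scale (SE, adjusted p = 0.00595, limma). In both, ZH11 replicate 2 was the lowest ZH11 library and still above every ZH11-OE-1 library. In ZH11-Cas9-1 they averaged 12.1 ± 6.75 and 66.0 ± 29.3 FPKM (SD, n = 3), below their ZH11 means of 54.6 ± 27.2 and 131 ± 40.3 FPKM (SD, n = 3), a difference that was not tested. All 4 genes were called in all 15 alternative settings.

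Genes that were silent in 1 genotype and expressed in the other ran almost wholly 1 way. Here all 37863 genes of the table were searched, not only those tested. In 17 genes every ZH11 library was under 0.1 FPKM and every ZH11-OE-1 library above 1 FPKM, and in 1 gene the reverse held. Of the 17, 14 were among the tested genes, and the 1 reverse gene was below the filter. These limits choose genes by the measured values, so the counts are a description. The 17 reached up to 85.9 FPKM in a ZH11-OE-1 library, and the median of their ZH11-OE-1 means was 4.47 FPKM. In 5 of the 17, every ZH11-Cas9-1 library was above 1 FPKM too, and in 10 every ZH11-Cas9-1 library was under 0.1 FPKM.

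Calls were found on all 12 chromosomes. By chromosome, the genes that rose were 2.77% of those tested on chromosome 6 and 4.55% on chromosome 8, the ends of the range, and those that fell were 8.77% on chromosome 12 and 12.2% on chromosome 10. In windows of 20 neighbouring tested identifiers, at most 6 genes rose and at most 8 fell, where the share over all tested genes would give a mean of 0.753 and 2.01. The highest of many windows lies above such a mean in any case, so these values cannot show whether calls cluster. Every chromosome had a window with at least 3 rises and a window with at least 6 falls. Calls were more frequent at higher levels. Of genes with a mean of 1 to 5 FPKM, 2.83% rose and 7.42% fell, and of those at 100 FPKM or more, 8.81% rose and 17.4% fell.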

How the data were processed

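The deposited table holds FPKM, which the authors computed before deposition from reads mapped to IRGSP-1.0 with HISAT2 and counted per gene with featureCounts. Neither the conversion of counts to FPKM nor the use of strand is stated in the sources used here, so overlapping, antisense and paralogous genes are uncertain. The authors called differential genes with DESeq2, which needs read counts and was not repeated. Columns were matched to samples by title, and 0 columns were left unused. Tests used log2(FPKM + 1) and limma 3.58.1 under R 4.3.3 (1 mean per genotype, 9 libraries in 1 fit, trended moderated spread, two-sided, Benjamini-Hochberg over 21666 genes, threshold 0.05). Genes averaging under 1 FPKM in the 6 libraries compared were left out. P-values set each difference against the spread between libraries of 1 genotype, pooled over the 9 libraries of the fit. When only the 2 genotypes were fitted, 2447 genes changed. The fit was also tested on simulated data. Python 3.11.15, numpy 2.4.6, pandas 2.3.3 and matplotlib 3.10.9 were also used.

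The comparison, its genes and the lists were chosen with earlier results of these data known. List identifiers were written from background knowledge. Names for them come from no table used here, and 1 of 39387 reference rows matched, so lists are described whole. In a check against names tied by values, 9 of 9 identifiers were equal. These 9 belong to the brassinosteroid, growth-regulating factor, and panicle branching and spikelet meristem lists. Identifiers of the other lists were not part of this check, so what their members encode rests on background knowledge. Lists defined by description words could not be applied. The rule for named genes takes *GSE9* if tied to a row, genes of the study's grain shape list and panel tied by their printed values, and the largest changes, with at most 2 unnamed identifiers per direction. *MCM4* departs from it, with 4 of 6 printed values equal within 2e-05 FPKM. Genes that did not pass, and the counts of silent genes, were named or chosen after their values were seen. Other settings tried were each library left out in turn, a filter at 5 FPKM or none, quantile normalization, rescaling by median of ratios, 0.1 as pseudocount, a fit of only the 2 genotypes, a fit with no trend, the replicate number as block, and calls restricted to log2 differences of at least 1.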

Additional observations from a re-analysis of the deposited data

How the results depend on the processing

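When calls needed a log2 difference of at least 1, 584 genes changed, 232 higher and 352 lower. Without 1 library, the counts were 1083 to 3219 changed, 241 to 855 higher and 836 to 2364 lower. The fall in ZH11-OE-1 held for 2 photosynthesis genes, 2 gibberellin genes, 0 cellulose synthases and 0 phenylpropanoid and lignin genes at that minimum change, and the rise for 0 DNA replication genes, with 1 grain shape gene higher and 1 lower. With no filter on low values, 9 photosynthesis genes were lower, and 0 heat shock, 2 DNA replication and 2 grain shape genes were higher. With a minimum mean of 5 FPKM, 2 DNA replication and 7 grain shape genes were higher and 3 gibberellin genes lower. Grain shape genes that were higher numbered 8 with median-of-ratios rescaling, 9 with quantile normalization and 1 when only the 2 genotypes were fitted, and DNA replication genes then numbered 3. Without 1 library, higher counts were 0 to 5 for DNA replication, 4 to 9 for tapetum and pollen wall, 0 to 12 for heat shock and 1 to 5 for grain shape, and lower counts were 4 to 20 for photosynthesis, 0 to 4 for cellulose synthases, 1 to 4 for gibberellin and 1 to 6 for grain shape. The causes were not tested. Values of the 13 named genes that passed kept their direction in all settings, and 46 of 193 values missed the threshold.

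The replicate numbers were not taken to pair the libraries, because deviations from the group means of same-numbered libraries had correlations of -0.281 to 0.0245. With the number as a block, 3174 genes changed, 961 higher and 2213 lower. Read totals were not used, so the counting error of single values is unknown.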

Other observations

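Carbohydrate genes were called in ZH11-OE-1 at a share near the 13.8% of all tested genes. Of 19 starch synthesis genes tested, 1 rose, 2 fell (3.77% of all tested genes rose and 10.04% fell) and 16 did not pass, with a median log2 fold change of 0.11, and the list summed to 477 ± 38.6 FPKM in ZH11-OE-1 and 443 ± 31.5 FPKM in ZH11 (SD, n = 3). Without 1 library, 0 or 1 of them rose and 0 or 1 fell, and with both rescalings 2 rose and 0 fell. Of 13 sucrose transport and cleavage genes, which load and split the sugar that feeds the panicle, 2 fell, by log2 fold changes of -0.997 and -0.80, and 0 rose. That list summed to 424, 468 and 444 FPKM in ZH11-OE-1, against 596, 500 and 484 FPKM in ZH11, and every ZH11-OE-1 sum was below every ZH11 sum. Without 1 library, 2 or 3 sucrose genes fell.

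Circadian clock genes, which time expression to the day, split 1 and 1 among 11 tested, with a rise of 0.59 and a fall of -0.64. Over all tested genes, 3.77% rose and 10.04% fell. The clock list summed to 686, 759 and 751 FPKM in ZH11-OE-1, against 582, 598 and 653 FPKM in ZH11, without overlap, and 1 member gave 56.9% of the sum. Whether the panicles were cut at the same time of day was not tested. A separate list of 8 tested brassinosteroid synthesis and signalling genes, shared in part with the grain shape genes, gave 0 calls in limma, with 1 at an unadjusted p under 0.05 (30.5% of all tested genes). Of 5 common reference genes, used to scale PCR measurements, 1 fell, with a log2 fold change of -0.62, and the median of the 5 was 0.01. That call was lost without ZH11 replicate 1 and without any 1 of the ZH11-OE-1 libraries, and the sign of the median changed among settings.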
